A study of Mus musculus with 63 samples.

Results

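AG1478 and erlotinib were compared in mouse keratinocytes that carry a viral ras oncogene. The comparison rests on 10 of the 63 arrays of the series, chosen by their titles: 5 arrays of wild-type v-rasHa cells treated with AG1478 and 5 of the same kind of cells treated with erlotinib. The cells came from newborn CD-1 mouse skin, had an intact *Egfr* gene, were infected with a virus that carries v-rasHa, and were cultured for 4 days. Each inhibitor was then given at 1 µM for 2 hours, so dose and time were matched, and this was the 1 pair of inhibitors compared. Wild-type v-rasHa cells without inhibitor (5 arrays) served as the background level. The same pair of inhibitors was also set side by side in wild-type mock cells (5 against 5 arrays) and in v-rasHa cells from EGFR knockout mice (4 against 4 arrays, after 2 of 6 AG1478 arrays were left out because their ratios ran opposite to their labels, with r = −0.83 and −0.81 against the forward arrays). Samples are called biological replicates in the design statement. Nothing else ties them to separate cultures or litters, so a p-value here weighs a difference against array-to-array spread that could be technical.

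The epidermal growth factor receptor (EGFR) is a tyrosine kinase at the keratinocyte surface. When a ligand of the EGF family binds, the receptor signals through Ras, Raf, MEK and ERK, and ERK activity soon switches on immediate early genes such as *Egr1* and *Fos* and feedback inhibitors such as *Dusp6* and the Sprouty and Spred proteins. Keratinocytes that carry v-rasHa secrete EGFR ligands and so stimulate their own receptor. AG1478 and erlotinib both occupy the ATP site of the EGFR kinase. In knockout cells their main target is taken as absent, by the label.

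Each array gives, per probe, the log ratio of the sample over one reference RNA, a pool made from 11 cell lines of the mouse. The log base is taken as 2, which the sources do not state. A level below is this log2 ratio, and a difference is AG1478 minus erlotinib on the same scale. The 10 arrays held 26207 to 27980 values each. Their spread was unequal, with an SD over probes from 0.98 (erlotinib replicate 1 and AG1478 replicate 3) to 1.59. As a check of the labelled cell type, the median keratinocyte marker exceeded the median marker of the reference pool on every one of these arrays, by between 3.09 and 6.51. This excess was uneven between arrays. On replicates 1 to 5 it was 5.50, 6.10, 3.09, 4.94 and 6.51 with AG1478. With erlotinib it was 3.35, 6.33, 3.79, 3.97 and 4.34.

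The inhibitor arrays of v-rasHa cells carry experiment numbers that fall into separate ranges, here called runs; what a run stands for is not given. AG1478 replicates 1, 2 and 5 lie in run 7 and replicates 3 and 4 in run 8, while erlotinib replicates 1, 2 and 3 lie in run 5 and replicates 4 and 5 in run 6. Inhibitor and run therefore cannot be told apart in these cells. Between the runs of 1 inhibitor, the median absolute difference per probe was 0.58 for AG1478 and also 0.58 for erlotinib (3 against 2 arrays each), against 0.34 between the inhibitors (5 against 5). Arrays of a run also resembled each other more: the median correlation was 0.78 within runs and 0.56 across runs for AG1478, and 0.79 and 0.66 for erlotinib.

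Expression differed between the inhibitors at a small share of probes. In limma with Benjamini-Hochberg adjustment, 204 of 27750 probes (0.735%) had an adjusted p under 0.05. Of these, 53 (0.191%) were higher with AG1478 and 151 (0.544%) were lower. Through 1 probe per gene, 117 genes passed, 35 of them higher and 82 lower with AG1478. The called differences were large, with a median size of 1.75 and a range from 1.01 to 3.47. For the median probe the 95% interval of the difference, with no adjustment for the number of probes, reached 0.75 to either side, and no difference under 1.01 was called. Among all probes, 3701 had an unadjusted p under 0.05. No probe passed once run was fitted as a random block, when 1493 had an unadjusted p under 0.05, and none passed when the 10 arrays were fitted alone (3009 at an unadjusted p under 0.05).

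The genes with the largest differences in each direction were chosen among called genes whose 5 AG1478 and 5 erlotinib levels did not overlap. Over all tested probes, 555 (2.00%) did not overlap. The choice fixes that separation, so it adds no support of its own. With 5 against 5 arrays the smallest exact 2-sided permutation p is 0.00794, and each of these 20 genes had that value (*Mettl24* with 5 against 4 arrays).

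*Mrtfa*, a coactivator of serum response factor that actin dynamics control, had the largest difference of the genes so chosen on the higher side. Its levels were 6.78, 6.57, 7.21, 5.78 and 5.60 with AG1478 and 2.59, 4.79, 2.38, 1.79 and 4.61 with erlotinib. All AG1478 arrays lay above all erlotinib arrays and above the mean of cells without inhibitor, 4.04 ± 1.34 (SD, n = 5). The difference was 3.16 ± 0.79 (SE), or 8.92-fold, with an adjusted p of 0.0368. It lost the call without any 1 of AG1478 replicates 1 to 4 or of erlotinib replicates 1, 3 and 4 (adjusted p from 0.055 to 0.134) and with quantile normalization (0.0576).

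*Ipo9*, a nuclear import receptor, had the smallest adjusted p of the genes named on the higher side (0.00444). Its levels were 1.86, 2.37, 3.06, 1.85 and 1.88 with AG1478, and −0.85, 1.46, −0.36, 0.07 and 0.89 with erlotinib. The difference was 1.96 ± 0.36 (SE). Cells without inhibitor averaged 1.39 ± 0.63 (SD, n = 5), between both treatments. Leaving out each of the 10 arrays in turn kept *Ipo9* past the threshold, at adjusted p from 0.000304 to 0.0307.

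For another 7 of the 10 higher genes the mean without inhibitor lay between the AG1478 mean above it and the erlotinib mean below it. *Klk1b26*, a member of the tissue kallikrein family of serine proteases, averaged 0.05 ± 0.31 with AG1478 and −2.93 ± 1.51 with erlotinib (SD, n = 5 each), with −0.98 in cells without inhibitor. *Fam185a* averaged 0.12 ± 0.43 and −2.85 ± 1.32, with −0.72 without inhibitor. *Arhgap10* averaged −0.16 ± 0.24 and −2.18 ± 1.07, with −0.77 without inhibitor. These 3 were called with differences of 2.98, 2.97 and 2.02, but erlotinib against cells without inhibitor did not pass for them (adjusted p = 0.108, 0.107 and 0.115). *Fam185a* kept its call in 1 of the 10 fits that left out 1 array each, without erlotinib replicate 2 (adjusted p from 0.0517 to 0.148 in the other 9), and lost it with probes averaged by gene (0.0679). *Arhgap10* kept its call without erlotinib replicate 5 (0.0456) and lost it in the other 9 fits (0.0514 to 0.0963). *Klk1b26* lost its call without any 1 of AG1478 replicates 1 and 4 or of erlotinib replicates 1, 3, 4 and 5 (0.0548 to 0.128).

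*Serinc2*, of a membrane protein family linked to serine incorporation, stood at 1.75 ± 0.51 with AG1478 and −0.15 ± 0.72 with erlotinib, and *Ost4*, a small subunit of the oligosaccharyltransferase that glycosylates proteins, at 1.37 ± 0.79 and −0.48 ± 1.06. *Olfr763*, an odorant receptor gene, stood at 0.76 ± 1.10 and −0.91 ± 0.35, and *Tmem132c* at 0.00 ± 0.24 and −1.66 ± 1.02. Within the AG1478 group the *Olfr763* level went with the run, averaging −0.02 in run 7 and 1.93 in run 8. With erlotinib it averaged −1.06 in run 5 and −0.69 in run 6. For *Serinc2*, *Ost4* and *Olfr763*, erlotinib arrays also lay below cells without inhibitor in limma (adjusted p = 0.0444, 0.00701 and 0.0187), whereas AG1478 arrays had adjusted p from 0.7 to 0.907 against those cells. For *Tmem132c* erlotinib did not pass against them (0.079).

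*Sprr1a* was the 1 called member of the suprabasal and cornified envelope genes. It codes for a small proline-rich protein that transglutaminases cross-link into the cornified envelope of the epidermis. Because it is a differentiation gene known to respond to AP-1, the Fos and Jun factors that lie downstream of ERK, the sequence before its start site is shown. These are the 250 bases before the *Sprr1a* start in RefSeq (build GRCm38.p6, minus strand, chr3:92485882-92486131), 5′ to 3′, with matches to the AP-1 motif TGANTCA in capitals:

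Sprr1a: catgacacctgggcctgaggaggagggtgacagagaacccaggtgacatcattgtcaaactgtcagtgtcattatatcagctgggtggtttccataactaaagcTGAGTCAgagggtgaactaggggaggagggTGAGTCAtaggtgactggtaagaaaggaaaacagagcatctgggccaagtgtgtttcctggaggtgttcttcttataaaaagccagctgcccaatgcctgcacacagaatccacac

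The motif, which reads alike on both strands, occurred 2 times, from 146 to 140 and from 116 to 110 bases before the start. Of 32851 RefSeq windows of the same length, 6.75% held at least 1 match and 0.338% held at least 2. Of the 24 tested suprabasal genes with such a window, 7 held a match: *Ivl*, *Lor*, *Sbsn*, *Sprr1a*, *Sprr1b*, *Sprr2d* and *Sprr2h*. A gene counted if any of its windows held a match, whereas the shares above are of single windows. A match is a description of the sequence and says nothing of binding in these cells.

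*Sprr1a* levels were 5.96, 6.67, 6.28, 5.43 and 5.42 with AG1478 and 3.21, 5.14, 4.72, 1.62 and 3.90 with erlotinib. The erlotinib levels spanned those of cells without inhibitor, which ran from 3.20 to 4.59, and the AG1478 levels lay above both. The difference was 2.24 ± 0.59 (SE), or 4.72-fold, with an adjusted p of 0.0496. It lost the call without any 1 of AG1478 replicates 1 to 4 or of erlotinib replicates 1, 3, 4 and 5 (adjusted p from 0.0743 to 0.188), kept it without AG1478 replicate 5 (0.0406) or erlotinib replicate 2 (0.014), and lost it without the dye term (0.0691), with quantile normalization (0.0694) and with arrays scaled to 1 spread (0.0834). AG1478 against cells without inhibitor gave 2.02 (adjusted p = 0.0556), and erlotinib against the same cells gave −0.21 (0.894).

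**Figure D1:**
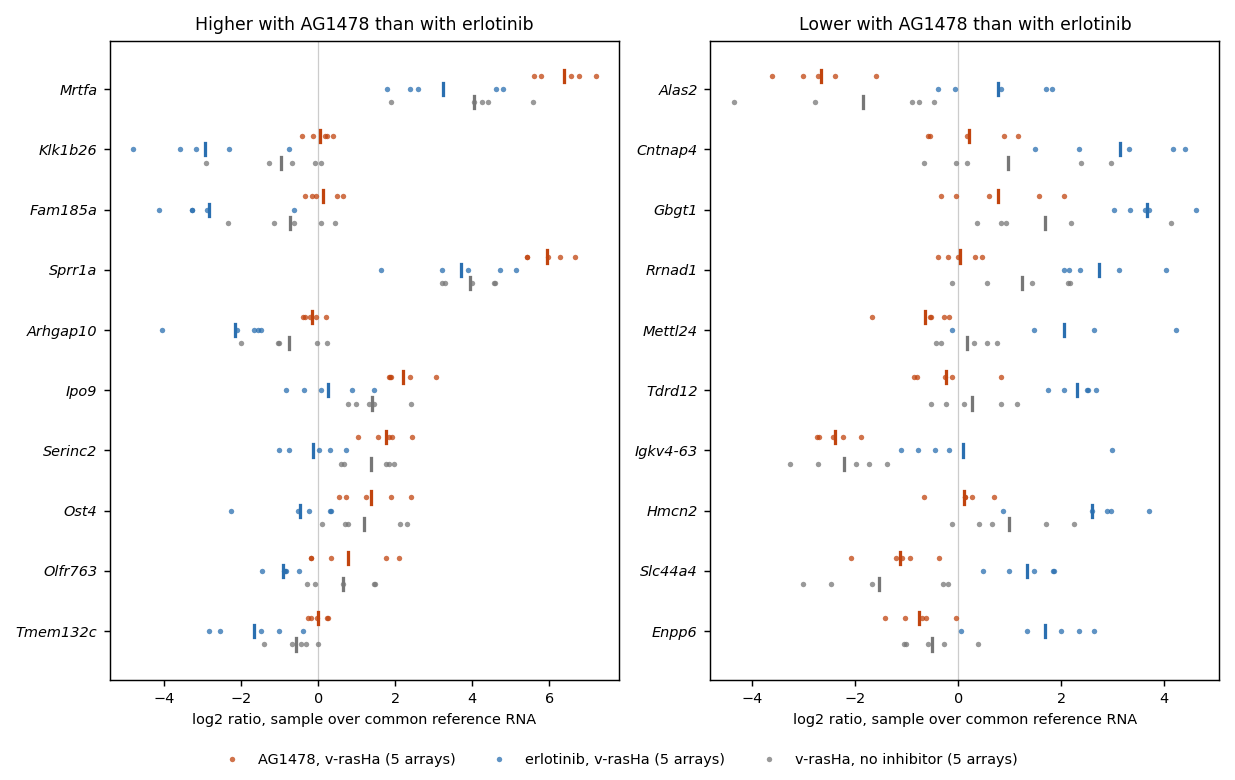
Levels of the 20 genes with the largest called differences, as log2 ratios of sample over reference RNA. Points are single arrays of wild-type v-rasHa cells with AG1478, with erlotinib or without inhibitor (5 arrays each; 4 for *Mettl24* with erlotinib), and bars are group means. By the rule that chose these genes, AG1478 and erlotinib points do not overlap; the means without inhibitor lie between both inhibitor means for 19 of the 20.

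Among the genes chosen on the lower side the largest difference was at *Alas2*, the erythroid form of the enzyme that starts haem synthesis. Its levels were −2.72, −2.39, −1.60, −3.61 and −3.01 with AG1478 and 1.82, −0.40, 1.71, 0.83 and −0.07 with erlotinib. The AG1478 arrays stayed below the reference pool and within the range of cells without inhibitor, −4.37 to −0.47. The difference was −3.44 ± 0.83 (SE; adjusted p = 0.0291). Without any 1 of AG1478 replicates 1 and 4 or of erlotinib replicates 1, 3 and 4 it lost the call (adjusted p from 0.0661 to 0.104).

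*Cntnap4*, a neurexin-related membrane protein, read −0.60, 0.88, 1.16, −0.55 and 0.16 with AG1478 and 2.35, 1.50, 3.32, 4.17 and 4.40 with erlotinib. The erlotinib arrays also lay above cells without inhibitor in limma, by 2.19 (adjusted p = 0.0296), whereas AG1478 gave −0.75 (0.542). Its difference between the inhibitors, −2.94 ± 0.59 (SE; adjusted p = 0.00848), belonged to 1 of its probes; the other gave −0.41 (0.671).

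*Gbgt1*, the glycosyltransferase family member that makes Forssman glycolipid, read 1.57, −0.33, 0.61, −0.04 and 2.05 with AG1478 and 3.33, 4.62, 3.64, 3.02 and 3.70 with erlotinib. *Tdrd12*, a Tudor domain protein of the piRNA pathway in germ cells, read −0.26, −0.12, 0.83, −0.81 and −0.87 with AG1478 and 2.68, 1.74, 2.50, 2.05 and 2.52 with erlotinib. *Slc44a4*, a choline transporter-like protein, read −1.09, −0.94, −0.37, −2.08 and −1.22 with AG1478 and 1.85, 0.48, 1.86, 0.99 and 1.47 with erlotinib. Every AG1478 level of these 3 genes lay below every erlotinib level. Erlotinib against cells without inhibitor gave adjusted p = 0.0695 for *Gbgt1*, 0.0403 for *Tdrd12* and 0.00746 for *Slc44a4*, and AG1478 gave 0.481, 0.698 and 0.796. The call of *Slc44a4* between the inhibitors was kept without AG1478 replicate 3 or erlotinib replicate 2 and lost without any other single array (adjusted p from 0.0548 to 0.131).

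The remaining named genes of the lower side were *Rrnad1*, *Mettl24*, *Igkv4-63*, *Hmcn2* and *Enpp6*, with differences from −2.44 to −2.71. *Igkv4-63*, an immunoglobulin light chain segment, averaged −2.40 ± 0.36 with AG1478 and 0.09 ± 1.66 with erlotinib, with 1 erlotinib array (replicate 2) at 2.99 and the others at −0.19 or lower. *Enpp6*, a phosphodiesterase, averaged −0.76 ± 0.51 and 1.68 ± 1.03. *Hmcn2*, an extracellular matrix protein, averaged 0.11 ± 0.50 and 2.60 ± 1.05. *Mettl24* had no value on erlotinib replicate 5. Probes of 1 gene did not always go together: the other *Rrnad1* probe gave 0.35, against −2.71 for the probe named, and the other probes of *Ost4*, *Enpp6* and *Fam185a* gave 0.04, −0.58 and 0.48, none of them called.

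Across the 20 genes, the mean without inhibitor lay between both inhibitor means for 19, and erlotinib was the farther inhibitor from it for 18. Since the genes were chosen for a large difference between the inhibitors, these counts are a description. In limma, 8 of the 20 passed for erlotinib against cells without inhibitor, where 861 of 27873 probes (3.09%) passed, and none for AG1478 against those cells, where 456 of 27714 (1.65%) passed. Both comparisons share the same 5 control arrays, which lie in runs 1 and 2, apart from the runs of either inhibitor, and with run as a random block the erlotinib calls of these 8 genes were lost (adjusted p from 0.15 to 0.415). Of the 21 called genes named here, *Ccne1* included, 4 kept their call whichever of the 10 arrays was left out (*Ipo9*, *Ost4*, *Cntnap4* and *Igkv4-63*), and 9 lost it in at least 5 of the 10 fits. With arrays of forward dye order only, *Ipo9* and *Ost4* kept the call (adjusted p = 0.0187 and 0.0289 in limma). *Cntnap4* and *Igkv4-63* lost it there (0.125 and 0.0758). The *Ost4* level also differed between runs, averaging 0.84 in run 7 and 2.16 in run 8 with AG1478. With erlotinib it averaged −1.01 in run 5 and 0.32 in run 6. Run 7 thus lay 0.52 above run 6, the smallest difference between runs among the 20 genes. Erlotinib replicate 2 was the erlotinib array nearest to the AG1478 group in 14 of the 20 genes. Without that array, 723 probes were called in place of 204, and without erlotinib replicate 3, 1 or 4 or AG1478 replicate 4 or 1, 53, 54, 100, 59 and 123 were called.

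**Figure D2:**
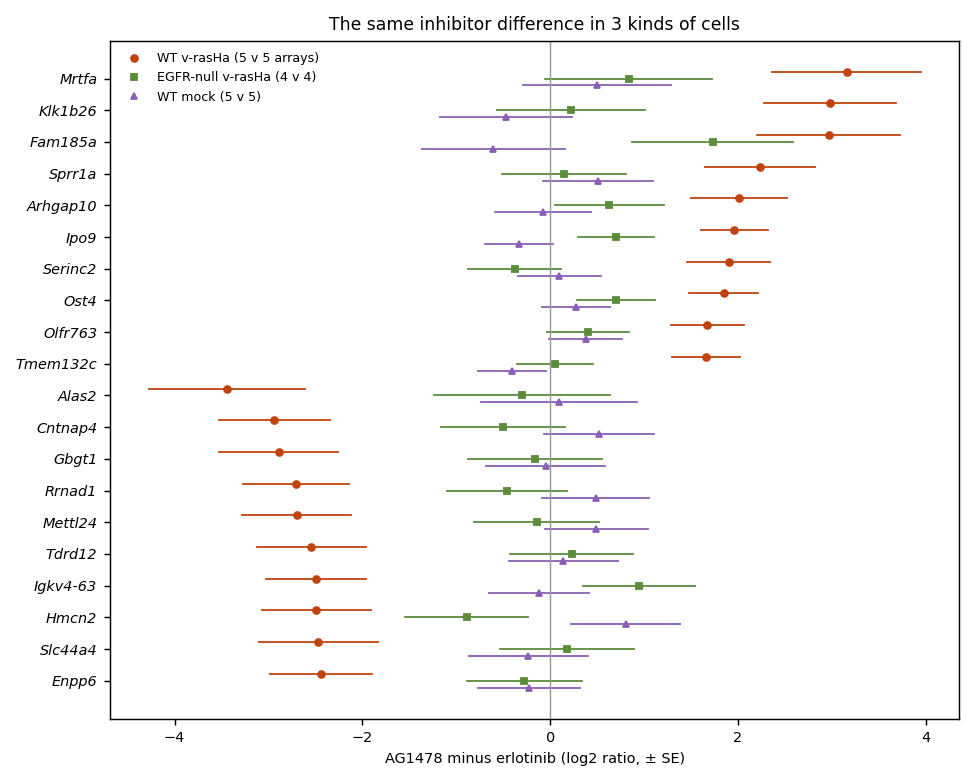
The difference AG1478 minus erlotinib (log2 ratio, ± SE from limma) for the same 20 genes in wild-type v-rasHa cells, EGFR knockout v-rasHa cells and wild-type mock cells. The genes were chosen on the wild-type v-rasHa values, which lie from 1.66 to 3.16 or from −2.44 to −3.44; the median size is 0.39 in knockout v-rasHa cells and 0.36 in mock cells.

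In the other cells few or no probes passed between the inhibitors. In mock cells, where both inhibitors share runs 1 and 2, none of 27909 probes passed in limma (845 at an unadjusted p under 0.05), and none passed with run as a fixed block (1036). The 95% interval of the median probe reached 0.76 to either side there. In knockout v-rasHa cells 5 of 27473 probes (0.0182%) passed, all lower with AG1478, and none passed with run as a random block. At an unadjusted p under 0.05 there were 2716 probes without the block and 756 with it, and the median absolute difference was 0.36, against 0.34 in wild-type v-rasHa cells and 0.24 in mock cells. Without AG1478 replicate 1 or erlotinib replicate 2 of these cells none passed, without AG1478 replicate 2 there were 2 and without replicate 6 there were 9, and without erlotinib replicate 1, 3 or 4 there were 11, 1 and 45. The 3 with a gene name were *Bnc1*, a transcription factor of basal keratinocytes, *Ahrr*, the repressor of the aryl hydrocarbon receptor, and *Anxa5*, a phosphatidylserine-binding protein. *Bnc1* levels in knockout cells were 0.41, 0.84, −0.10 and −0.81 with AG1478 and 5.94, 5.66, 6.07 and 3.66 with erlotinib, groups that do not overlap. In wild-type v-rasHa cells the *Bnc1* difference had the same sign, −2.82 ± 0.92 (SE), but an adjusted p of 0.122. There AG1478 replicate 5 read 4.85 and the other AG1478 arrays from −2.09 to 1.01. The wild-type AG1478 mean was 2.04 in run 7 and −1.67 in run 8, the run that holds all knockout AG1478 arrays. Knockout erlotinib arrays lie in runs 5 and 6, so inhibitor and run cannot be told apart in knockout cells either.

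The 20 genes chosen in wild-type v-rasHa cells had a median absolute difference of 2.49 there, 0.39 in knockout v-rasHa cells (highest 1.73, *Fam185a*) and 0.36 in mock cells (highest 0.80, *Hmcn2*). The first value is inflated by the choice. Of the 204 called probes, 127 had the same sign in knockout v-rasHa cells and 100 in mock cells, against 51.2% and 52.7% of all probes tested in both. Over all probes the wild-type v-rasHa difference had r = 0.06 (27357 probes) with that in knockout v-rasHa cells and r = 0.16 (27627 probes) with that in mock cells; probes of 1 array share its dye and spread and are not independent.

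The difference between cell kinds was itself tested. Against knockout v-rasHa cells 1 of 27357 probes passed, that of *Pde4b*, a phosphodiesterase that breaks down cyclic AMP. Its levels in wild-type v-rasHa cells were 0.24, −1.34, 0.89 and −0.73 with AG1478 (replicate 3 had no value) and −0.77, −1.41, −1.69, −1.26 and −1.52 with erlotinib. In knockout v-rasHa cells they were −1.318, −1.999 and −1.5 with AG1478 (replicate 1 had no value) and −0.06, −0.11, −0.11 and −0.55 with erlotinib. AG1478 was thus higher by 1.09 in the first and lower by 1.38 in the second, neither called alone (adjusted p = 0.0604 and 0.108), and the difference of differences was 2.47 ± 0.45 (SE; adjusted p = 0.0359). Erlotinib shares runs 5 and 6 between genotypes and AG1478 shares run 8, so this contrast can also be fitted with run as a fixed block. Run 7 holds wild-type AG1478 arrays alone, so in that fit the wild-type AG1478 arm rests on the 2 arrays of run 8, replicates 3 and 4, and for *Pde4b* on replicate 4 alone, the array of reversed dye order; 34 probes then passed, 16 higher and 18 lower in wild-type cells, *Pde4b* among them at 3.58 ± 0.57 (SE; adjusted p = 0.00148; 0.00306 with run as a random block). None of the 20 named genes passed in that fit. All 20 kept the sign of their wild-type difference there, with a median size of 2.18, in a contrast that shares the wild-type arrays that chose them. Without the block, no probe passed when any 1 of wild-type AG1478 replicates 1 and 4, wild-type erlotinib replicates 3, 4 and 5, knockout AG1478 replicates 2, 5 and 6 or knockout erlotinib replicates 1 and 2 was left out, 2 passed without wild-type AG1478 replicate 2 or knockout erlotinib replicate 4, 3 without wild-type AG1478 replicate 3 and 40 without wild-type erlotinib replicate 2.

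Against mock cells 1 of 27627 probes passed, that of *Uchl4*, a ubiquitin hydrolase gene. Its levels in wild-type v-rasHa cells were 0.09, 0.21, 0.77, 0.28 and 0.20 with AG1478 and 2.44, 2.19, 3.11, 1.71 and 1.89 with erlotinib. In mock cells both inhibitors averaged near each other, 0.69 with AG1478 and 0.51 with erlotinib. The difference was −1.96 ± 0.27 (SE) in v-rasHa cells, with the smallest adjusted p of that comparison (4.84e-05; 0.0686 with run as a random block), and the difference of differences was −2.13 ± 0.38 (SE; adjusted p = 0.0219, or 0.525 with run as a random block). Erlotinib alone differed from cells without inhibitor by 1.70 (adjusted p = 0.000163, and 0.0471 with that block). No probe passed between v-rasHa and mock cells without wild-type v-rasHa AG1478 replicate 1 or 5, erlotinib replicate 1 or 3, or mock AG1478 replicate 1 or 2; 11 passed without v-rasHa AG1478 replicate 2, 8 without erlotinib replicate 2 and 2 without AG1478 replicate 3.

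Through 1 probe per gene, no listed immediate early gene, ERK feedback gene, EGF family ligand or ErbB receptor passed the test between the inhibitors. Of all 14438 genes tested 117 passed, a share at which lists this short would hold few calls or none. *Egr1*, an immediate early transcription factor, read 0.21, −0.24, 0.08, −0.12 and 0.14 with AG1478 and −0.05, 0.53, −0.08, −0.89 and −0.25 with erlotinib, against 2.10 to 3.30 in cells without inhibitor. The inhibitor arrays overlapped each other and none reached the lowest array without inhibitor. Against those cells the AG1478 arrays differed by −2.61 and the erlotinib arrays by −2.78 (adjusted p = 9.86e-08 and 1.35e-08 in limma, with shared control arrays, and 0.000462 and 2.83e-05 with run as a random block). The level also went with the run. The arrays of runs 1 and 2 read from 1.46 to 3.30, mock cells with the same inhibitors included (2.55 ± 0.31 with AG1478 and 2.58 ± 0.39 with erlotinib, SD, n = 5 each; 2.60 ± 0.49 without inhibitor, n = 4). Those of runs 3 to 8 read from −1.23 to 1.48, knockout v-rasHa cells without inhibitor included (−0.67 ± 0.42, n = 5). Both ranges also hold cells treated with another inhibitor, PD153035, which gave the 1.46 in mock cells. The range of runs 3 to 8 also holds knockout mock cells. Inhibitor and run cannot be told apart in these *Egr1* differences. The difference between the inhibitors was 0.16 (95% interval −0.42 to 0.75; adjusted p = 0.869).

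*Klf6*, a zinc finger factor induced by growth signals, read 1.55, 1.35, 0.54, 1.75 and 1.25 with AG1478 and 1.46, 0.92, 1.44, 1.54 and 1.54 with erlotinib, all below the lowest array without inhibitor (2.55). The differences from cells without inhibitor were −1.53 and −1.43 (adjusted p = 0.00299 and 0.0032). For *Btg2*, an antiproliferative gene, they were −1.46 and −1.70 (adjusted p = 0.022 and 0.00475). Mock cells in runs 1 and 2 averaged 3.06 with AG1478 and 2.73 with erlotinib for *Klf6*, and 1.87 and 1.57 for *Btg2*. With run as a random block these calls were lost, at adjusted p = 0.238 and 0.193 for *Klf6* and 0.375 and 0.15 for *Btg2*. Between the inhibitors *Klf6* differed by −0.09 and *Btg2* by 0.24, neither called. *Fos* averaged 0.90 ± 1.44 with AG1478 and 0.54 ± 0.47 with erlotinib against 2.39 ± 0.74 without inhibitor (SD, n = 5 each); neither inhibitor passed against those cells (adjusted p = 0.191 and 0.077).

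**Figure D3:**
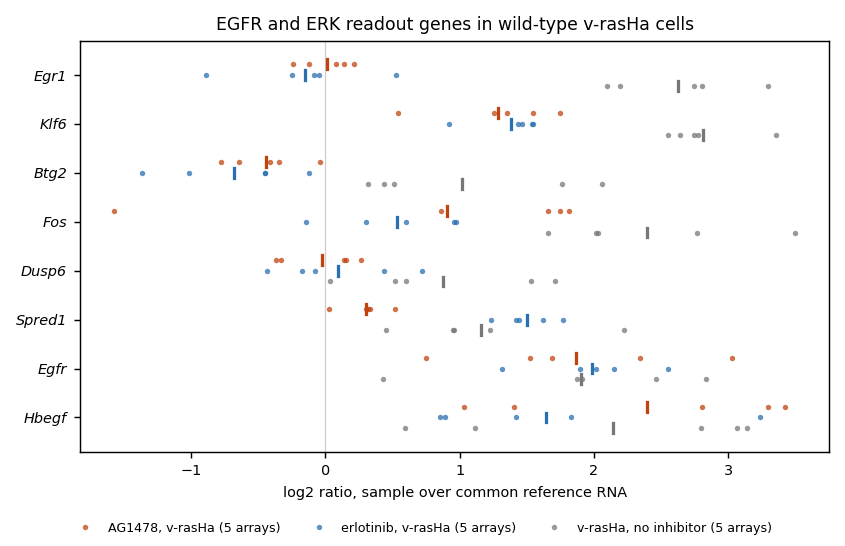
Levels of *Egr1*, *Klf6*, *Btg2*, *Fos*, *Dusp6*, *Spred1*, *Egfr* and *Hbegf* as log2 ratios of sample over reference RNA in wild-type v-rasHa cells with AG1478, with erlotinib or without inhibitor. Points are single arrays (5 each) and bars are means. For *Egr1*, *Klf6* and *Btg2* both inhibitor groups lie together below the arrays without inhibitor. *Spred1* is the gene where the inhibitor groups do not overlap.

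Among 22 tested immediate early genes none was called between the inhibitors, none had an unadjusted p under 0.05, and the median difference was 0.13. Over all 14438 genes tested, 117 were called, 1886 had an unadjusted p under 0.05 and the median was −0.001. Of 16 ERK feedback genes none was called and the median was −0.16. *Dusp6*, the phosphatase that inactivates ERK, differed by −0.12 (95% interval −0.84 to 0.60), and its other probe by −0.995 (adjusted p = 0.246). *Spred1*, an inhibitor of Ras activation, came nearest to the threshold: 0.30, 0.52, 0.32, 0.02 and 0.34 with AG1478 and 1.44, 1.77, 1.42, 1.23 and 1.62 with erlotinib. These groups do not overlap, and the difference was −1.20 ± 0.32 (SE; adjusted p = 0.0503). A second probe of *Dusp4*, another ERK phosphatase, was called at 1.62 (adjusted p = 0.0155), while the probe with most values gave −0.51 (0.645), so the direction for *Dusp4* depends on the probe.

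The receptor itself and its ligands gave no call either, beside 117 called of all 14438 genes tested. *Egfr* averaged 1.87 ± 0.86 with AG1478, 1.99 ± 0.45 with erlotinib and 1.90 ± 0.92 without inhibitor. The difference was −0.12 (95% interval −0.93 to 0.69), and the other *Egfr* probe gave 0.74 (adjusted p = 0.544 in limma). In knockout v-rasHa cells the first probe averaged 1.607 ± 0.216 with AG1478 and 2.405 ± 0.296 with erlotinib (SD, n = 4 each). Its level therefore did not mark the knockout, and the reason was not tested. *Hbegf*, the heparin-binding EGF-like ligand, read from 1.03 to 3.42 with AG1478 and from 0.85 to 3.24 with erlotinib, a difference of 0.75 (95% interval −0.37 to 1.87). Of 12 EGF family ligands and ErbB receptors tested, 6 had a positive and 6 a negative difference, with a median of 0.02. Of 28 cytokines and chemokines none was called, and the median was also 0.02.

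Of 33 suprabasal and cornified envelope genes tested, which keratinocytes switch on as they leave the basal layer, 26 had a positive difference and the median was 0.43, beside 49.9% positive over all genes. As a median over the list, the level per array ran from 1.28 to 4.93 with AG1478 and from 2.46 to 4.03 with erlotinib, so the groups overlapped and the lowest array was an AG1478 array. Under median centring, quantile normalization or scaling of all arrays to 1 spread, 24 to 26 were positive. The single call was *Sprr1a*, and under quantile normalization or scaling none was called. Without erlotinib replicate 2 the median was 0.90 and *Sprr1a*, *Tgm1* (a cross-linking transglutaminase) and *Sbsn* were called, in a fit that called 723 probes. Without the narrowest array of each group the median was 0.92 with none called. In the main fit another 8 had an unadjusted p under 0.05. Of all 14438 genes tested, 117 were called there and 1886 had an unadjusted p under 0.05. *Sprr1b* averaged 6.82 ± 1.78 with AG1478 and 4.46 ± 2.08 with erlotinib, *Sprr3* 7.36 ± 0.69 and 5.56 ± 1.48, and *Krt10*, a keratin of the suprabasal layers, 1.97 ± 0.43 and 0.88 ± 0.30; their adjusted p values were 0.233, 0.243 and 0.283. *Krt1*, the partner of *Krt10*, read from 3.11 to 4.11 with AG1478 and from 1.82 to 3.09 with erlotinib.

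Other members of the list lay on the erlotinib side. *Notch1*, a receptor that promotes differentiation, read from 0.57 to 1.30 with AG1478 and from 1.44 to 2.04 with erlotinib. The desmosomal cadherin *Dsg1a* averaged 2.15 ± 2.35 with AG1478 and 4.14 ± 0.55 with erlotinib (adjusted p = 0.3). In all, 4 of the 33 (12.1%) did not overlap, namely *Sprr1a*, *Krt1*, *Krt10* and *Notch1*, against 2.00% of all probes.

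None of 19 general keratinocyte markers was called. Of these, 14 had a positive difference, the median was 1.12 and 8 had an unadjusted p under 0.05. Over all 14438 genes tested, 49.9% had a positive difference and 1886 an unadjusted p under 0.05. *Krt16* and *Krt6b*, keratins of wounded and hyperproliferative epidermis, passed without erlotinib replicate 2, in a fit that called 723 probes. As a median over the markers, the level per array ran from 2.66 to 5.21 with AG1478 and from 2.84 to 5.20 with erlotinib. *Krt5*, the basal keratin, averaged 4.50 ± 0.69 with AG1478 and 2.72 ± 0.91 with erlotinib (adjusted p = 0.34). Of 18 basal keratinocyte genes, however, 7 had a positive difference with a median of −0.19, and of 18 stress keratins and alarmins 10 had one with a median of 0.09; none was called. The part of keratinocyte content or array spread in the suprabasal values was not tested, and in such cultures fewer cells of a type and less RNA per cell cannot be told apart. In knockout v-rasHa cells the suprabasal median was −0.39 and that of the keratinocyte markers −0.27; in mock cells they were 0.13 and 0.24.

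**Figure D4:**
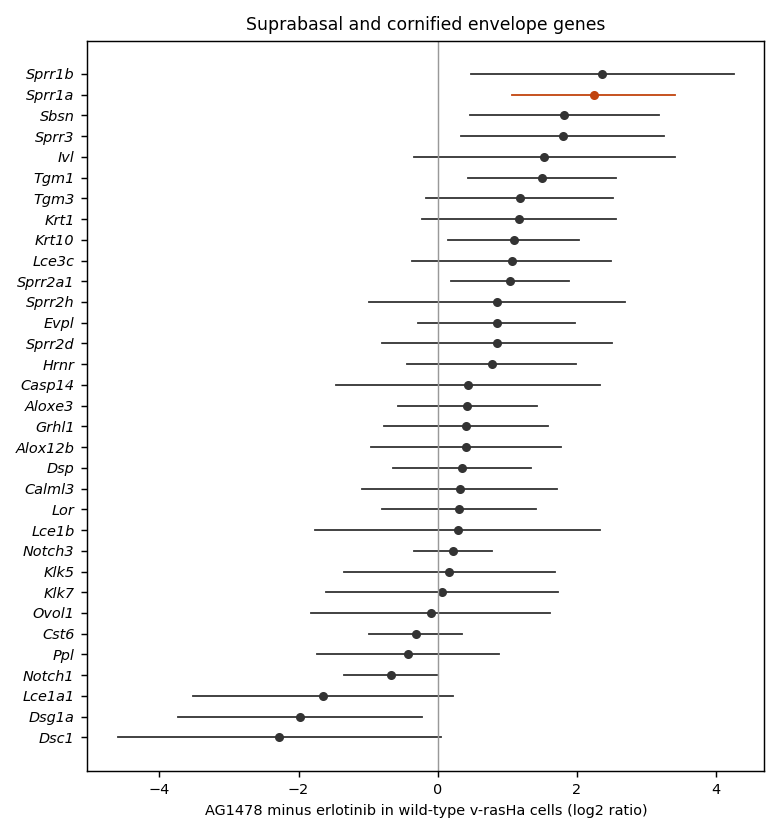
Difference AG1478 minus erlotinib in wild-type v-rasHa cells (log2 ratio) for the 33 tested suprabasal and cornified envelope genes, with 95% intervals from limma (5 against 5 arrays). *Sprr1a*, drawn in red, is the 1 called gene; 26 points lie above 0 and 7 below.

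*Ccne1*, the cyclin that starts S phase with Cdk2, was the 1 called member of 30 DNA replication and G1/S genes. It read 2.00, 2.25, 0.59, 0.91 and 3.34 with AG1478 and −0.43, 1.21, −0.89, −0.34 and −0.37 with erlotinib. Erlotinib replicate 2 overlapped the AG1478 arrays, and the exact 2-sided permutation p was 0.0238. The difference was 1.98 ± 0.50 (SE; adjusted p = 0.0372). The AG1478 mean, 1.82, lay near that of cells without inhibitor (2.07 ± 0.51, SD, n = 5). The single AG1478 arrays spread wider, from 0.59 to 3.34 against 1.19 to 2.49. Erlotinib arrays differed from cells without inhibitor by −2.23 (adjusted p = 0.00797 in limma, or 0.23 with run as a random block). The second *Ccne1* probe gave 0.22 (adjusted p = 0.858). Within the AG1478 group the level followed the run, averaging 2.53 in run 7 and 0.75 in run 8, and without run 7 the difference was 0.91 (adjusted p = 0.48). Without any 1 of AG1478 replicates 1, 2, 4 and 5 or of erlotinib replicates 1, 3, 4 and 5 the adjusted p ran from 0.0543 to 0.128. The other 29 genes of this list were not called, and the list's median was −0.08.

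The remaining lists held no called gene through their main probe. List counts above and below stand beside 117 called of all 14438 genes tested. Through a second probe *Ctsd*, a lysosomal protease, was called at 2.09 (adjusted p = 0.0131) and *Atf4*, a stress response factor, at −1.90 (0.0185), while their main probes gave −0.70 and −0.53. Mitosis genes had a median of −0.13 (8 of 23 positive), cholesterol and fatty acid synthesis genes −0.02 (11 of 24), p53 targets −0.01 (8 of 17), NRF2 targets 0.04 (12 of 23), heat shock genes 0.28 (8 of 10), interferon response genes −0.13 (9 of 20) and ribosomal protein genes −0.23 (6 of 22). Among proteases and their inhibitors, *Plaur*, the urokinase receptor, read 2.61, 2.78, 1.96, 2.12 and 3.34 with AG1478 and 0.46, 1.30, 0.51, 0.78 and 0.67 with erlotinib, which do not overlap; the difference was 1.82 ± 0.54 (SE; adjusted p = 0.0839). *Mmp1a*, a collagenase, did not overlap either, from −0.57 to 1.28 with AG1478 and from 1.43 to 1.68 with erlotinib (adjusted p = 0.169).

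Genes that the aryl hydrocarbon receptor controls were listed because some small-molecule kinase inhibitors act on that receptor. None of 11 was called between the inhibitors, and the median difference was −0.21. *Cyp1b1*, a cytochrome P450 induced by the receptor, read 2.75, 7.06, 1.43, 3.18 and 6.90 with AG1478 and 5.36, 6.52, 6.17, 5.43 and 5.10 with erlotinib, against 0.36 to 3.67 without inhibitor. The erlotinib arrays lay together above all arrays without inhibitor (3.52 higher, adjusted p = 0.00797, or 0.175 with run as a random block), and the AG1478 arrays spread over both ranges (2.07 higher, adjusted p = 0.151). The difference between the inhibitors, −1.45 ± 0.78 (SE), had an adjusted p of 0.418. *Cyp1a1* had values on 3 AG1478 arrays and differed by −0.21 (95% interval −1.95 to 1.54). *Ugt1a6a*, a glucuronosyltransferase, read from −1.95 to −0.55 with AG1478 and from −0.47 to 0.60 with erlotinib, without overlap (adjusted p = 0.125).

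Markers of other cell types that a skin culture can hold were counted in the same way. None of 18 fibroblast, 11 melanocyte, 12 leukocyte and 11 endothelial markers was called through its main probe, with medians of −0.16, −0.25, 0.09 and 0.24. The median level per array of fibroblast markers ran from −1.93 to −0.10 with AG1478 and from −1.69 to −0.57 with erlotinib, below the reference pool on every array. A second probe of *Vim*, a mesenchymal filament gene, was called at 1.90 (adjusted p = 0.0163), while its main probe gave −0.35 (0.853).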

How the data were processed

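The deposited values are log ratios per spot of 2-colour arrays of mouse oligonucleotides, taken as log2. Per the labels' protocols, Trizol total RNA was labelled with Cy3 and reference RNA with Cy5, reversed on 1 array in 10 of the 13 groups fitted; KO mock and the KO ras AG1478 arrays kept held none, and in WT mock the reversed array was averaged with its forward repeat. The authors' background correction and normalization are not given in the sources used here. Reversed arrays were turned to sample over reference. Of 28049 probes, 20925 had 1 symbol (20802 matched through Entrez identifiers), 159 several and 6965 none.

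The limma model (version 3.58.1, with statmod 1.5.0 in R 4.3.3; Python 3.11.15 and matplotlib 3.10.9 for figures) held 60 samples of 13 groups and a dye term, with eBayes moderation; p-values were adjusted by Benjamini-Hochberg over all probes tested (threshold 0.05). The 13 groups include arrays with another inhibitor, PD153035, and knockout mock arrays. A probe needed values on 60% of the arrays of each group compared. WT mock repeat 1, deposited in both dye orders, was averaged. Runs were parted where experiment numbers jumped by over 100; as a random block their correlation was 0.264. The code was tested on simulated data.

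For the text, 1 probe per symbol (most values) was used. It names the 10 largest called, non-overlapping differences per direction, skipping clone codes, called members of 28 gene lists, and *Egfr*, *Egr1*, *Fos*, *Dusp6*, *Hbegf* and *Cyp1a1*; *Hras* and *Areg* were listed too but no probe bore those symbols. *Spred1*, *Klf6*, *Plaur* and other list members that were not called were picked after their values were seen. Members and lists were chosen with earlier results of these data known. The number of arrays limits the precision.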

Additional observations from a re-analysis of the deposited data

Results flagged for a closer look

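In 5 of 52 groups of 5 arrays of the named genes, 1 array stood far from the other 4 by Dixon's test at 95%, which chance alone gives in about 1 of 20 groups. Erlotinib replicate 2 was that array in 3 of them: *Arhgap10* read −4.05 there and from −2.11 to −1.49 on the others, *Igkv4-63* read 2.99 against −1.11 to −0.19, and *Ccne1* read 1.21 against −0.89 to −0.34. With AG1478, *Mettl24* read −1.68 on replicate 2 against −0.55 to −0.19 on the others, and *Fos* read −1.58 on replicate 4, the array with reversed dyes, against 0.86 to 1.82.

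In the main fit the inhibitor difference itself passed between cell kinds at 2 genes, and both calls were lost without some single arrays. For *Pde4b*, wild-type less knockout v-rasHa cells gave 2.47, and for *Uchl4*, v-rasHa less mock wild-type cells gave −2.13. With run as a random block in limma *Pde4b* kept its call (adjusted p = 0.00306) and *Uchl4* lost it (0.525).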

How the results depend on the processing

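Counts below are probes called between AG1478 and erlotinib in wild-type v-rasHa cells (204), mock cells (0), knockout v-rasHa cells (5), wild-type less knockout v-rasHa cells (1) and v-rasHa less mock cells (1). In mock cells 0 were called under every alternative. In wild-type v-rasHa cells, 174 to 249 were called with no dye term, with the disputed knockout arrays turned by correlation, with median centring, with other filters on missing values (199 and 221), with arrays scaled to 1 spread (232, chosen after seeing the data) and without run 5 of erlotinib (214). There were 35 with forward dye order only, 378 with quantile normalization (158 higher and 220 lower, against 53 and 151), 107 of fewer features with probes averaged by gene, 602 with array weights, 0 in the groups compared alone and 0 with run as a random block. Without run 7 or 8 of AG1478 there were 624 and 64, without run 6 of erlotinib 95, and without the narrowest array of each group (chosen after seeing the data) 34. The causes were not tested.

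In knockout v-rasHa cells the count was 0 with no dye term, quantile normalization or run as a random block, 37 with forward dye order only, 67 with the disputed arrays turned, 2 with probes on every array, 1218 with array weights and 1 with arrays scaled to 1 spread. For wild-type less knockout cells it was 10 with forward dye order only, 0 with the disputed arrays turned, probes on every array or groups alone, 2 with quantile normalization or scaled arrays, 468 with array weights and 34 with run as a fixed block; it was 0 without run 7, 66 without run 8, 2 without run 5, 4 without run 6 and 3 without the narrowest arrays. For v-rasHa less mock cells it was 0 with forward dye order only, quantile normalization, groups alone, run as a random block or scaled arrays, 2 with the disputed arrays turned, 3 with no filter or array weights, and 51, 2, 10 and 3 without runs 7, 8, 5 and 6.

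Leaving out each array in turn gave 53 to 723 calls in wild-type v-rasHa cells (723 without erlotinib replicate 2), 0 to 45 in knockout cells (45 without erlotinib replicate 4), 0 to 40 for wild-type less knockout cells (40 without wild-type erlotinib replicate 2) and 0 to 11 for v-rasHa less mock cells (11 without wild-type v-rasHa AG1478 replicate 2). Of the 21 called genes named, 6 to 20 kept their call without 1 array, fewest without AG1478 replicate 4 or erlotinib replicate 1. Without 1 run 4 to 7 kept it, and 3 without the narrowest array of each group. With forward dye order only 2 kept it, and 0 with the groups alone or run as a random block. Under the other alternatives 18 to 21 kept it. None of these 21 genes changed sign under any of the 28 alternatives in which it was tested. The named genes that were not called each changed sign in some: *Egfr* kept its sign in 21 of 28 and *Dusp6* in 24. For the 20 genes chosen for levels that do not overlap, leaving out arrays could hardly turn the sign, so this adds no support. Same-numbered arrays of both inhibitors deviated together with r from 0.06 to 0.32, over 0.1 in 4 of 5 pairs, and 3 of 5 AG1478 arrays correlated best with their own number. Since pairing was taken only where every pair exceeded 0.1, the arrays were treated as sharing only a number, though this hints at some pairing. The replicate block left *Fam185a*, *Sprr1a* and *Ccne1* above the threshold (adjusted p = 0.0529, 0.0547 and 0.0518) and gave 179 calls in wild-type v-rasHa cells, 0 in mock cells, 17 in knockout cells, 0 for wild-type less knockout cells and 1 for v-rasHa less mock cells. Run as a fixed block could not be fitted for wild-type v-rasHa cells, whose inhibitors share no run.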
